A study of Mus musculus with 2 samples.

Results

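The 6 genes described here encode the microRNAs miR-192, miR-194, miR-215, miR-204 and miR-211. As a group they are named for the tubules of the adult kidney, although miR-211 is known from melanocytes. Here they were measured in kidneys of mouse embryos. They were chosen by name, with earlier results of these data known: Mir192, Mir194-2, Mir215, Mir194-1, Mir204 and Mir211, 6 of the 1973 microRNA gene rows. All 6 had a row in both libraries. Small RNA under 30 nucleotides was sequenced from kidneys of B6NCrl embryos at embryonic day 16.5, with embryos of both sexes pooled. The series holds 1 group and no treatment. Biological replicate 2 pooled 41 embryos, and for replicate 1 the labels state a pool without its size. They give both libraries the same donor record, so differences between them may be partly technical.

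MicroRNAs are cut from hairpin precursors, and a mature microRNA finds its target messenger RNAs mainly through its seed, bases 2 to 8. miR-192 and miR-215 are close relatives that lie beside a copy of miR-194 in separate genomic clusters. Both clusters are known from kidney, gut and liver, and in human cells p53 is known to induce them. miR-204 and miR-211 are a second pair of relatives, each set in an intron of a gene for a TRPM ion channel. miR-204 is known from kidney, retinal pigment epithelium and choroid plexus, and miR-211 from melanocytes. The assay reads microRNAs only, so neither the target messenger RNAs nor the host transcripts were measured.

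The mature sequences show which of the genes can act through the same seed and which can be told apart by sequencing. They are the RefSeq entries on GRCm38.p6, the assembly also called mm10, and all 6 genes matched an entry. The arm at the 5′ side of each precursor, the 5p arm, is given 5′ to 3′ with the seed in capitals:
miR-192-5p: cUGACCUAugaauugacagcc
miR-215-5p: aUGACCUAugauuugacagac
miR-194-5p, from both Mir194-2 and Mir194-1: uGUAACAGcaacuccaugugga
miR-204-5p: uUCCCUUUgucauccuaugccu
miR-211-5p: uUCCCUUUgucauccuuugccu

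miR-192-5p and miR-215-5p share the seed and differ at 3 of 21 bases, written as C1A, A12U and C20A with the base of miR-192-5p first and positions counted from the 5′ end. miR-204-5p and miR-211-5p differ at 1 of 22 bases, A17U, with the base of miR-204-5p first. miR-194-5p has 1 sequence from 2 genes. Among the 1738 mature entries of the RefSeq table, no microRNA outside the 6 genes holds the seed of miR-192-5p or of miR-194-5p. The seed of miR-204-5p also occurs in miR-7670-3p, whose gene Mir7670 had 1 read in replicate 2 and 0 reads in replicate 1.

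The precursors of the miR-194 copies show where their reads can be separated. Both are printed with the 5p and the 3p arm in capitals:
Mir194-2, chr19:6264643-6264728, plus strand: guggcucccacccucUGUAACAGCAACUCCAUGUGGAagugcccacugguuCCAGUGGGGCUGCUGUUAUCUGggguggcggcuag
Mir194-1, chr1:185313319-185313385, plus strand: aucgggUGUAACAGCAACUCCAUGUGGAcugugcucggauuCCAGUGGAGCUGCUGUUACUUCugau

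The longest stretch the miR-194 precursors share is 22 nt, and it is the mature miR-194-5p itself. The base that follows it is A in Mir194-2 and C in Mir194-1. A read of miR-194-5p that ends within the shared stretch therefore matches both genes, whereas a read of a 3p arm does not, since the 3p arms differ at 4 of 22 bases (G8A, U19C, C20U and G22C, with the base of miR-194-2-3p first). The deposited tables assign no read with several mapping places to a gene. They numbered 3718198 in replicate 2 and 3323410 in replicate 1, or 25.3% and 28.0% of all reads, and how many of them were miR-194-5p is not recorded. The levels of Mir194-2 and Mir194-1 therefore leave out such reads, and their ratio is uncertain.

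The other members do not share such a stretch with any precursor in the RefSeq table, which holds 1005 hairpins. The longest match of Mir204 and Mir211, with each other, is 17 nt, shorter than either 5p arm, and those of Mir192 and Mir215 with any precursor are 13 and 11 nt. Copies elsewhere in the genome were not searched for.

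The clusters and host genes differ in their surroundings, as GENCODE M21 gives them on mm10. Mir192, on chromosome 19 from 6264844 to 6264932, lies 115 nt downstream of Mir194-2 on the same strand. No annotated gene overlaps either, and the nearest coding gene, Atg2a, an autophagy gene, ends 2307 nt before Mir194-2. Mir215, on chromosome 1 from 185313581 to 185313692, lies 195 nt downstream of Mir194-1. Both sit antisense within introns of Iars2, which encodes the mitochondrial isoleucyl-tRNA synthetase. On their own strand Mir215 overlaps an exon of the non-coding transcript 2010103J01Rik, and Mir194-1 lies in its intron.

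Mir204, on chromosome 19 from 22750605 to 22750672, lies in introns of Trpm3 on the same strand, 611559 nt from the start of that gene. Mir211, on chromosome 7 from 64205806 to 64205911, lies in introns of Trpm1 on the same strand, 51971 nt from its start. The version of the Mir204 identifier in the deposited tables is older than in this annotation, so the interval counted may differ from the one given. No microRNA gene other than the partner in its cluster lay within 10000 nt of any member.

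Reads on the strand of the gene totalled 7128703 in replicate 2 and 5317669 in replicate 1, over all microRNA genes. Levels are counts per 1000000 of these reads (CPM), with exact 95% intervals for a single library and SDs over both libraries (n = 2). The intervals cover counting error only. As the reads carry no molecular identifiers, copies made by amplification count as separate reads, and the intervals may be too narrow. All 6 genes yield products of nearly the same length, so their CPM were compared without a correction for length. How evenly the assay captures different sequences was not measured. An unevenness shared by both libraries would not show in the spread between them, so folds between genes compare reads and not molecules. Because whole kidneys were used, fewer cells that make a microRNA and less of it per cell cannot be told apart.

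The 6 genes together held 0.0519% of the reads in replicate 2 and 0.0493% in replicate 1, a mean of 506 ± 18.4 CPM. That is a small part of the reads assigned to microRNA genes. Reads of miR-194-5p that fit both copies are missing from the sum of the 6 genes, and their number is not recorded. The miR-200 family, which keeps epithelial cells epithelial, held 26528 ± 343 CPM over 5 genes, and the log2 ratio of the 6 genes over it was -5.71 ± 0.03. Over the 6 genes of the miR-30 family, abundant in podocytes and tubules and holding 41952 ± 5213 CPM, the log2 ratio was -6.37 ± 0.13. Both differences exceeded the replicate spread, whose limit was 1.25-fold for the first and 1.24-fold for the second. This limit is the 95% bound of a difference of 2-library means, taken from the pooled replicate SD of genes within 2-fold of each level. Unless 1 was added to the CPM, genes lacking reads in 1 library or in both were left out of that SD. Genes of the miR-30 family resemble each other closely, and reads of theirs that map to several places are missing from that sum. All 5 genes of the miR-200 family were detected, which means a level of 1 CPM or more in each library. No marker of tubules other than the 6 genes was fixed for this assay, so their origin in tubule cells was not tested.

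Within the 6 genes, levels spanned more than 2 orders of magnitude, and 3 genes held most of the reads. Mir204 accounted for 44.8% ± 2.02 of the reads of the 6 genes, Mir192 for 32.4% ± 0.718 and Mir194-2 for 18.8% ± 1.58. Mir215 followed with 3.23% ± 0.898, Mir194-1 with 0.667% ± 0.242 and Mir211 with 0.171% ± 0.0259. The order was the same in both libraries.

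**Figure D1:**
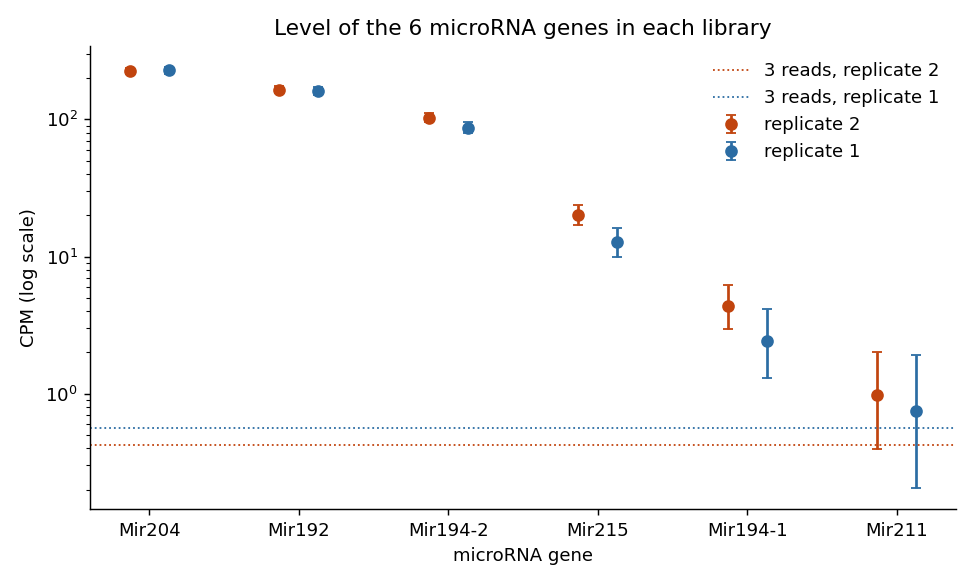
Level of each of the 6 microRNA genes in replicate 2 (left of each pair) and replicate 1, in CPM on a log scale, with exact 95% counting intervals and dotted lines at the CPM of 3 reads, the upper limit that a count of 0 allows. Levels run from 225 and 228 CPM for Mir204 to 0.982 and 0.752 CPM for Mir211, and only the intervals of Mir211 reach the dotted lines.

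Mir192, the source of miR-192, had 1179 reads or 165 CPM (interval 156 to 175) in replicate 2 and 862 reads or 162 CPM (151 to 173) in replicate 1. The libraries overlapped within counting error, and the mean was 164 ± 2.32 CPM. Mir194-2, its partner on chromosome 19, had 736 reads or 103 CPM (95.9 to 111) in replicate 2 and 463 reads or 87.1 CPM (79.3 to 95.4) in replicate 1. Replicate 2 was the higher, the intervals just failed to overlap, and the mean was 95.2 ± 11.4 CPM.

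Mir215, which gives the relative of miR-192, had 143 reads or 20.1 CPM (16.9 to 23.6) in replicate 2 and 68 reads or 12.8 CPM (9.93 to 16.2) in replicate 1. Its mean was 16.4 ± 5.14 CPM, and the intervals of the libraries did not overlap. Mir194-1, the partner of Mir215 on chromosome 1, had 31 reads or 4.35 CPM (2.95 to 6.17) in replicate 2 and 13 reads or 2.44 CPM (1.30 to 4.18) in replicate 1. Its mean was 3.40 ± 1.35 CPM, with overlapping intervals.

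Mir204, the Trpm3 microRNA, had the highest mean of the 6 gene rows, though not beyond the replicate spread over Mir192 (1.38-fold, limit 1.49-fold) and with the miR-194-5p reads missing from the Mir194 rows. It had 1606 reads or 225 CPM (214 to 237) in replicate 2 and 1213 reads or 228 CPM (215 to 241) in replicate 1. Its mean was 227 ± 1.99 CPM, and the intervals overlapped almost entirely. Mir211, the Trpm1 microRNA, had 7 reads or 0.982 CPM (0.395 to 2.02) in replicate 2 and 4 reads or 0.752 CPM (0.205 to 1.93) in replicate 1. Both counts lay above 3 reads, the limit that a count of 0 allows, which equals 0.421 CPM in replicate 2 and 0.564 CPM in replicate 1. That limit does not cover misread bases. A miR-204-5p read with an error at the 1 base that differs, A17U, would match Mir211, and this was not tested. By the bound of 1 CPM in both libraries, Mir211 was not detected and the other 5 genes were, among 387 detected genes in all.

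On the opposite strand the 6 genes had 0 reads in replicate 2 and 1 read, at Mir194-1, in replicate 1. Mir215 and Mir194-1, which lie antisense within Iars2, thus stood apart from the other members by no more than this 1 read. Because only RNA under 30 nucleotides was sequenced, this count says nothing about the level of Iars2.

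Among all microRNA genes the 6 genes ranked from 133 to 437 by mean CPM. Mir204 ranked 133, Mir192 146, Mir194-2 184, Mir215 252, Mir194-1 327 and Mir211 437. The detected genes had a median of 64.2 CPM, which lies between Mir194-2 and Mir215. Mir204 stood next to Mirlet7a-1, Mir155, Mir20b and Mir350, which had means from 219 to 228 CPM. Mir192 stood next to Mir874, Mir92b, Mir185 and Mir700, between 161 and 182 CPM. These neighbours are the 2 genes next above and the 2 next below each member in mean CPM over both libraries, which says nothing beyond a similar level.

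Mir194-2 lay among Mir500, Mir30b, Mir101a and Mir574, at 93.6 to 99.7 CPM. Mir215 lay among Mir378d, Mir18b, Mir3099 and Mir668, at 15.8 to 17.3 CPM, Mir194-1 among Mir1945, Mir5618, Mir199a-1 and Mir6540, at 3.35 to 3.45 CPM, and Mir211 among Mir7068, Gm25732, Mir344b and Mir670, at 0.867 to 0.891 CPM. None of these 24 neighbours differed from its member beyond the replicate spread, which follows from their choice by level and is not a result.

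**Figure D2:**
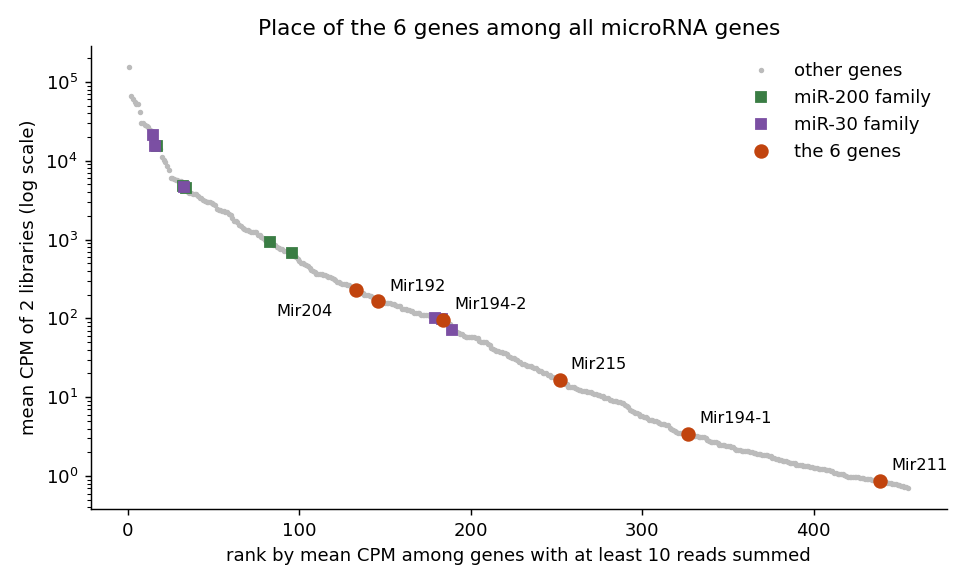
Mean CPM of both libraries on a log scale against rank, for the 455 microRNA genes with at least 10 reads summed. The 6 genes lie between rank 133 (Mir204, 227 CPM) and rank 437 (Mir211, 0.867 CPM), while the leading members of the miR-200 and miR-30 families, Mir429 at 15538 CPM and Mir30e at 21388 CPM, lie near the top.

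The clusters were then compared to ask which copy of the arrangement supplies these microRNAs. The cluster on chromosome 19 dominated. Mir192 and Mir194-2 together had 1915 reads or 269 CPM in replicate 2 and 1325 reads or 249 CPM in replicate 1. Mir215 and Mir194-1 together had 174 reads or 24.4 CPM in replicate 2 and 81 reads or 15.2 CPM in replicate 1. The cluster on chromosome 19 thus held 93.0% ± 1.82 of the reads of both, and stood 13.4-fold above the one on chromosome 1 (log2 ratio 3.75 ± 0.40, n = 2).

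This fold exceeded the limit of 1.48-fold set by the replicate spread, and also passed with each library alone. It was 11.0-fold in replicate 2 (counting interval 9.42 to 12.9) and 16.4-fold in replicate 1 (13.1 to 20.7), and these intervals did not overlap. With 2 libraries an exact two-sided sign-flip permutation test cannot go below p = 0.5, the value found for each of the 7 folds between members computed here. Since the miR-194 reads are incomplete, the fold between the unique members is the firmer of the comparisons. Mir192 stood 8.24-fold above Mir215 in replicate 2 (6.93 to 9.88) and 12.7-fold in replicate 1 (9.90 to 16.5), a mean of 10.2-fold against a limit of 1.51-fold.

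In the reads assigned to a single gene, the miR-194 copies stood further apart than the miR-192 and miR-215 genes beside them. Mir194-2 was 23.7-fold above Mir194-1 in replicate 2 (16.6 to 35.2) and 35.6-fold in replicate 1 (20.6 to 67.4), a mean of 29.1-fold with a limit of 1.94-fold. Which arm the counted reads came from is not recorded, and the reads that fit both copies are not in this ratio. A 5p read that runs past the shared stretch is assigned by its end alone, starting with A in Mir194-2 and C in Mir194-1. The fold may therefore differ from that of the miR-194-5p made by each gene. Whether the fold differed from that of Mir192 over Mir215 was not tested.

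Within each cluster the miR-192 or miR-215 gene led. Mir192 stood 1.60-fold above Mir194-2 in replicate 2 (1.46 to 1.76) and 1.86-fold in replicate 1 (1.66 to 2.09), a mean of 1.73-fold against a limit of 1.51-fold. With replicate 2 alone the fold of 1.60 no longer passed its limit, 1.80-fold. Mir215 stood 4.61-fold above Mir194-1 in replicate 2 (3.11 to 7.04) and 5.23-fold in replicate 1 (2.86 to 10.3), a mean of 4.91-fold against a limit of 1.94-fold. Mir192 gave 63.3% ± 2.47 of the reads of its cluster and Mir215 gave 83.1% ± 1.25 of those of its own. Missing miR-194-5p reads lower the miR-194 share in both.

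The hosted pair differed most. Mir204 stood 229-fold above Mir211 in replicate 2 (111 to 572) and 303-fold in replicate 1 (118 to 1115), a mean of 264-fold (log2 ratio 8.04 ± 0.28) against a limit of 2.66-fold. With 7 and 4 reads of Mir211, some of which could be misread Mir204 reads, the size of this fold is loosely set. From log2(CPM + 1), which shrinks folds of low genes, it was 122-fold, still far beyond the replicate spread. Mir204 gave 99.6% of the reads of the pair in replicate 2 and 99.7% in replicate 1.

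**Figure D3:**
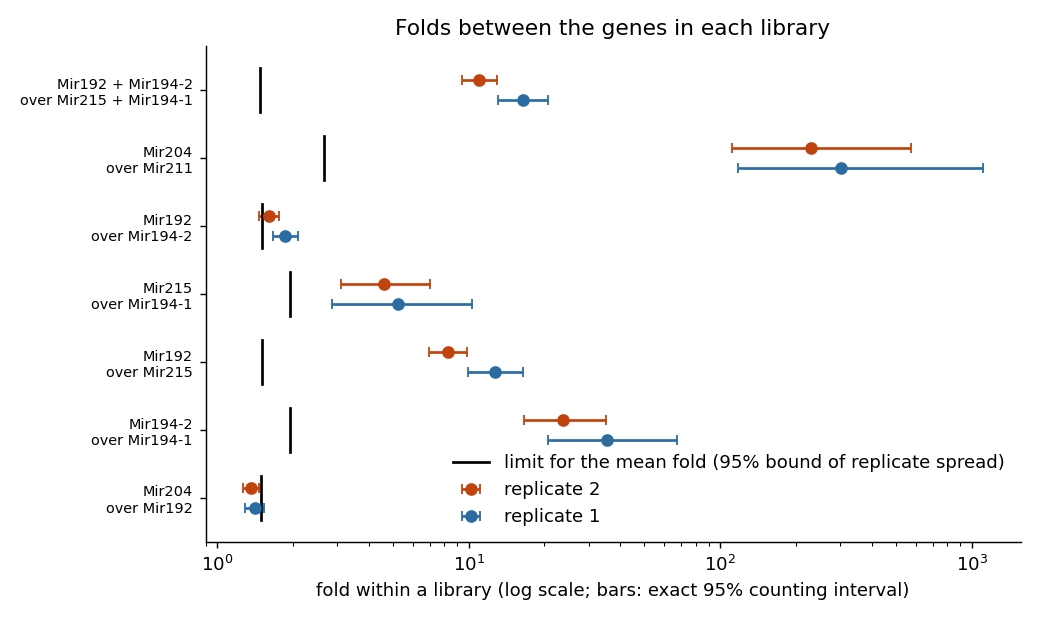
Folds between the genes or clusters named on the left, within replicate 2 (upper point of each pair) and within replicate 1, on a log scale, with exact 95% counting intervals. The black line is the limit for the mean fold, the 95% bound from the replicate spread of genes of like level. The mean of every pair lies to the right of its line except that of Mir204 over Mir192, whose points at 1.36 and 1.41 lie to the left of 1.49.

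The gene rows were also summed over the genes whose 5p arms share a seed. These sums hold the reads of both arms, since the arm is not recorded, so they are levels of genes and not of a seed. Mir204 and Mir211 together held 228 ± 1.83 CPM, nearly all of it in the Mir204 row. Mir192 and Mir215 held 180.2 ± 7.47 CPM, with 90.9% ± 2.48 of the reads in the Mir192 row. Mir194-2 and Mir194-1 held 98.6 ± 12.8 CPM, with 96.6% ± 0.927 of the reads in the Mir194-2 row, and this sum leaves out the reads that fit both copies. The leading genes Mir204 and Mir192 did not differ beyond the replicate spread, since Mir204 stood 1.36-fold above Mir192 in replicate 2 and 1.41-fold in replicate 1, against a limit of 1.49-fold for their mean of 1.38-fold. With a replicate spread taken from all genes of at least 100 CPM the limit was 1.35-fold, which 1.38-fold passed. All other neighbours in the order of levels differed beyond the spread, from Mir192 over Mir194-2 to Mir194-1 over Mir211, a mean of 3.79-fold against a limit of 3.03-fold. Genes lacking reads in a library were left out of that spread, so the limit may be too low for a gene as low as Mir211.

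Replicate 2 was compared with replicate 1 across 455 genes with at least 10 reads summed, using an exact two-sided binomial test with TMM scaling and Benjamini-Hochberg adjustment. The test counts reads only and compares these 2 libraries, not conditions. In it 153 genes, 33.6% of those tested, had an adjusted p under 0.05, and 81 of them, 17.8%, were lower in replicate 2. Of the 6 genes 1 was called, in the lower direction, no more than these background shares.

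That gene was Mir204, at a log2 ratio of -0.16 (exact binomial test, adjusted p = 0.0128). Scaled by library totals, its log2 ratio was -0.02 and the adjusted p 0.861, so the call rests on the scaling. The higher counts of the chromosome 1 cluster in replicate 2 did not pass. Mir215 had a log2 ratio of 0.50 (exact binomial test, adjusted p = 0.0501) and Mir194-1 one of 0.66 (adjusted p = 0.314). Mir194-2 stood at 0.10 (adjusted p = 0.412), Mir192 at -0.11 (adjusted p = 0.179) and Mir211 at 0.17 (adjusted p = 1.00).

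By library totals, which raised all log2 ratios by 0.14, Mir215 at 0.64 (exact binomial test, adjusted p = 0.00643) and Mir194-2 at 0.25 (adjusted p = 0.0118) passed, while Mir192 stood at 0.03 and Mir194-1 at 0.80, and neither passed. With this scaling 42.4% of all tested genes were called, and 33.4% were called higher, and the 2 of 6 genes called higher match that share. The median over the 6 genes was 0.14 with TMM, beside 0.01 over all tested genes. In the edgeR exact test with a biological coefficient of variation of 0.2, all 6 adjusted p-values were 1.00.

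**Figure D4:**
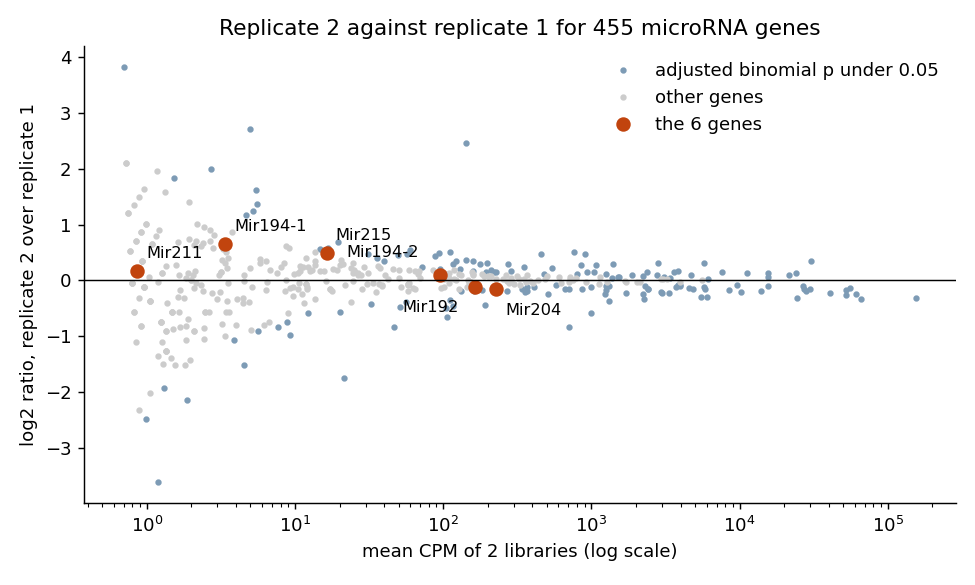
Log2 ratio of replicate 2 over replicate 1 with TMM scaling against mean CPM on a log scale, for the 455 tested genes. Mir194-1 (0.66) and Mir215 (0.50) lie above 0, while Mir192 (-0.11) and Mir204 (-0.16) lie just below it among the genes of their level.

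Markers of other cell types bear on the miR-192 cluster, because liver and gut also make miR-192 and miR-194. The liver marker Mir122 had 171 CPM in replicate 2, against 210.1 CPM in replicate 1. Mir192 stood 0.967-fold over Mir122 in replicate 2 and 0.772-fold in replicate 1, within the limit of 1.48-fold. Its partner Mir194-2 stood 0.604-fold over Mir122 in replicate 2 and 0.415-fold in replicate 1, and its mean lay below Mir122 beyond the replicate spread. In the other cluster Mir215, at a mean of 0.0845-fold, and Mir194-1, at 0.0172-fold, were also below Mir122 beyond their limits. Reads that fit both miR-194 copies are missing from the Mir194-2 and Mir194-1 rows, and their number is not recorded. The folds of Mir194-2 and Mir194-1 over Mir122 may therefore be too low. Whether either gene would lie below Mir122 with these reads included cannot be decided. Mir122 was lower in replicate 2, with a log2 ratio of -0.44 (exact binomial test, adjusted p = 1.7e-12), beside -0.11 for Mir192. Its part in the level of Mir192 was not tested.

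The endocrine microRNA gene Mir375 had 537 CPM in replicate 2, against 867 CPM in replicate 1. Of the other marker lists, 1 endothelial gene of 1, 2 smooth muscle genes of 2, 3 erythroid genes of 3 and 3 leukocyte genes of 3 with a row were detected, with mean sums of 52093, 30811, 373 and 615 CPM. Of 6 neuronal genes 2 were detected, Mir137 at a mean of 105 CPM and Mir9-3 at 2.44 CPM. Mir124a-2 and Mir124a-3 had 0 reads. Of 4 striated muscle genes 1 was detected, Mir206 at a mean of 277 CPM, while Mir1a-1, Mir133a-1 and Mir133a-2 had 0 reads. The genes at 0 reads belong to microRNAs known to come from several gene copies with the same mature sequence. The deposited tables give reads shared by such copies to none of them, so a count of 0 does not show absence. The parts of these markers in the levels above were not tested.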

How the data were processed

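The deposited files are raw counts of reads per microRNA gene (mm10, annotation M4), per the deposited text notes. The aligner, counter and trimming were not given in the sources used here. In all 1973 gene rows the first count equals the sum of the other 2, so the 3 columns were read as both strands, the gene strand and the other strand, and the gene strand was used. Rows that name no gene, 51.5% of reads in replicate 2 and 55.2% in replicate 1, stayed out of library sizes. Identifiers without version were matched to GENCODE M21 (1894 matched, and 79 unmatched rows held 3 reads).

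CPM, folds and tests across all genes were computed in Python 3.11.15 with SciPy 1.17.1. TMM factors (1.051 for replicate 2, 0.952 for replicate 1) and the exact test came from edgeR 4.0.16, and other size factors from DESeq2 1.42.0. Folds within a library are ratios of CPM with no added count, averaged on the log2 scale, and log2 ratios between libraries add 0.5 reads. With 1 library per side the quasi-likelihood test of edgeR has no residual degrees of freedom and was not run. The p-values measure only the spread or the counting error of these libraries. The tests were checked on simulated reads, for the edgeR exact test with changes far larger than those of the 6 genes between libraries. The 6 genes, the lists and the comparisons were chosen with earlier results of these data known. Besides the 6 genes, the text names the 2 genes next above and below each in mean CPM and the marker genes of fixed lists. Alternatives were other scalings, counts on either strand, no read filter, log2(CPM + 1), another replicate spread, other tests and leaving out each replicate.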

Additional observations from a re-analysis of the deposited data

How the results depend on the processing

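No paired analysis was possible because the series holds 1 group. Of the 7 folds between members or clusters, all kept their direction under log2(CPM + 1), either-strand counts, another replicate spread and leaving out each replicate. The fold of Mir192 over Mir194-2 fell short of its limit without replicate 1, at 1.60, while its values without either replicate ran from 1.60 to 1.86. The fold of Mir204 over Mir192 passed at 1.38 with the spread of genes of at least 100 CPM. The fold of Mir204 over Mir211 was 122 on log2(CPM + 1). With reads mapping to several places, in no gene or ambiguous added to the library total, levels were 134 CPM for Mir204, 97.0 for Mir192, 56.6 for Mir194-2, 9.83 for Mir215, 2.04 for Mir194-1 and 0.517 for Mir211, and the share of the 6 genes was 0.0300%, by construction, since the total is larger. With reads on either strand Mir192 stood at 160.2 CPM and Mir204 at 222 CPM. The count of 153 genes differing between libraries was 193 with library totals, where 78.8% of calls were higher in replicate 2 against 47.1% with TMM, and 3 with the edgeR exact test, both with a fixed and a trended dispersion. The log2 ratio of Mir192 was 0.03 with library totals against -0.11 with TMM, by construction, since library totals raised the log2 ratio of all genes by 0.14. Depth limits Mir211 and Mir194-1 most, at 11 and 44 reads over both libraries.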
